A study of Mus musculus with 8 samples.

Results

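Transcripts of 9 genes for cAMP-responsive transcription factors and their coactivators were compared between Akap11 conditional knockout (cKO) mouse brain, with 4 libraries, and control mouse brain, with 4 libraries. The 9 genes are Creb1, Crem, Atf1, Atf2, Crtc1, Crtc2, Crtc3, Crebbp and Ep300, taken by name from the 57186 genes that each library lists, and all 9 passed the filter on low counts together with 16766 genes in all. The deleted gene belongs to the A-kinase anchoring proteins, which hold protein kinase A (PKA) at defined places in the cell. The title of the series names PKA network homeostasis, and these 9 genes encode CREB-related factors and their coactivators, most of which respond to cAMP signalling. The recombinase line, the cells in which it acts, the deleted exons, and the strain, age, sex and brain region of the animals are not stated in the labels. Since the labels do not say whether libraries came from separate animals, the p-values reflect only how much these libraries varied, which may in part be technical.

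CREB1, CREM and ATF1 are closely related bZIP proteins that bind the cAMP response element (CRE) in promoters. When cAMP rises, the catalytic subunit of PKA phosphorylates a serine in their kinase-inducible domain, and the phosphorylated form recruits the acetyltransferases CBP (Crebbp) and p300 (Ep300). The CRTC proteins are a separate coactivator arm. Salt-inducible kinases keep them in the cytoplasm, while PKA, which inhibits those kinases, and the calcium-dependent phosphatase calcineurin let them enter the nucleus. In neurons this pathway is known for coupling synaptic activity to transcription. Phosphorylation, protein level and location in the cell are not measured by RNA counts.

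Reads in genes ran from 13841218 to 19991942 in cKO libraries and from 15752877 to 19818313 in control libraries. Akap11 (chromosome 14), the targeted gene, had 220, 214, 237 and 240 CPM (read counts relative to library size, adjusted by the TMM method of edgeR) in cKO libraries 1 to 4, against 373, 312, 315 and 291 CPM in control libraries 1 to 4. Every cKO library lay below every control library. The log2 fold change was -0.50 (SE 0.069, edgeR adjusted p = 0.0103), and a two-sided exact permutation test gave p = 0.0286, the smallest that 4 against 4 allows. Leaving out cKO replicate 2 (edgeR adjusted p = 0.104) or control replicate 2 (edgeR adjusted p = 0.0616) ended this call. A pair of libraries stood apart. Genes took 63.8% of the reads of cKO replicate 1 and 73.7% to 79.7% elsewhere, and its score on the leading principal component of log2 CPM was 39.1, with all others from -10.5 to 0.48. On the next component the score of control replicate 1 was 31.0, with all others from -14.3 to 3.77. Values without these libraries are given beside the results of the 9 genes that they move. The label of brain tissue matched the markers: neuronal, astrocyte, oligodendrocyte, microglial and endothelial markers were all detected, and the 5 pan-neuronal markers summed to 4672 to 5108 CPM in cKO libraries and 4911 to 5339 CPM in control libraries. The 5 astrocyte markers summed to 1148 to 1224 CPM in cKO libraries and 1030 to 1194 CPM in control libraries; 1 of them, the water channel gene Aqp4, was higher in cKO brain (log2 fold change 0.46, SE 0.067, edgeR adjusted p = 0.0104), and the other 4 did not pass. The part of astrocytes in the results below was not tested.

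None of the 9 genes passed the test over all genes. With an edgeR adjusted p threshold of 0.05, 0 of the 9 passed, against 4 of the 16766 genes tested (0.0239%), and at an unadjusted p under 0.05 the count was 0 of 9, against 4.78% of all genes. DESeq2 and limma voom likewise called 0 of the 9, adjusted or at an unadjusted p under 0.05. The log2 fold changes ran from -0.14 for Creb1 to 0.16 for Crtc2, with a median of -0.03, where the median over all genes tested was 0.0034. In this RNA from whole tissue, fewer cells of a type and less RNA per cell cannot be told apart.

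**Figure D1:**
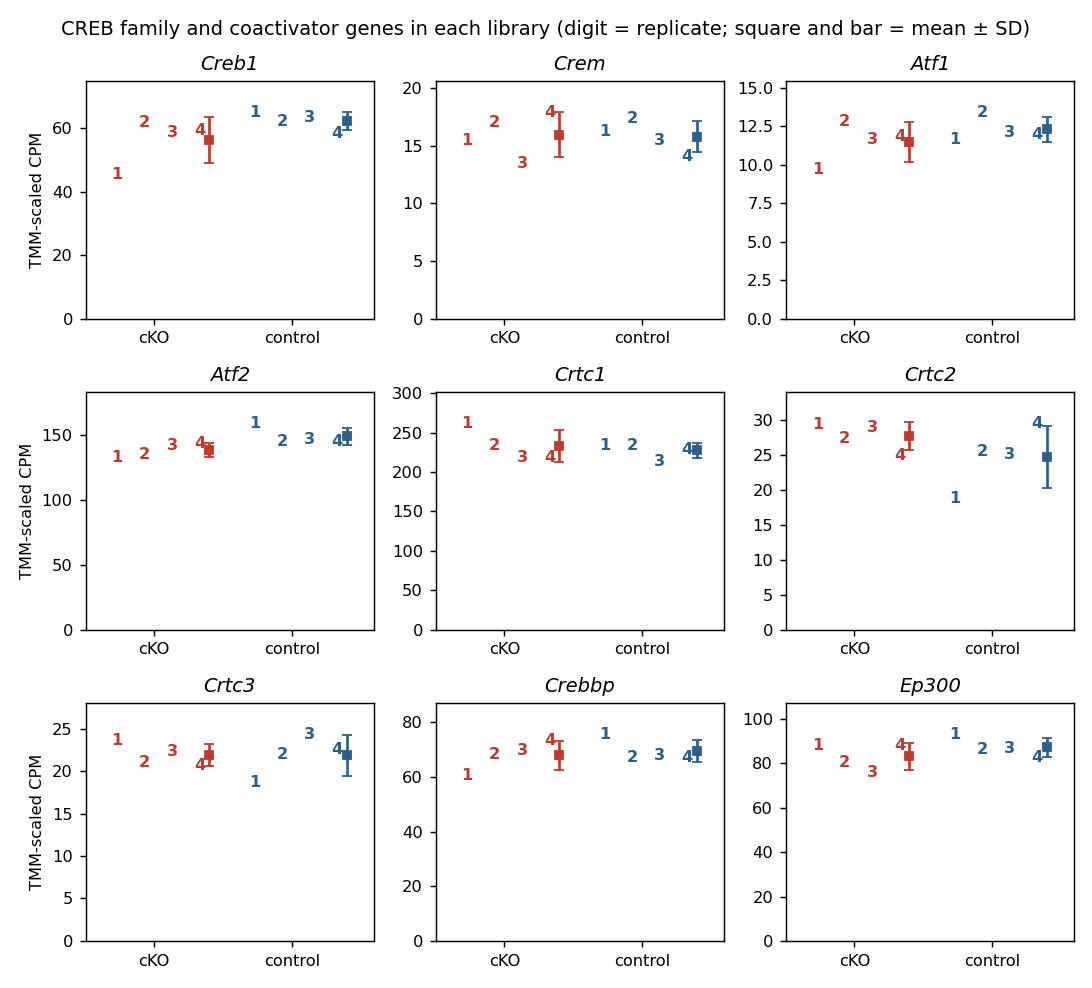
TMM-scaled CPM of each of the 9 genes in the 4 cKO libraries (red) and the 4 control libraries (blue); digits are replicate numbers, squares and bars are the mean ± SD, and each vertical axis starts at 0. The groups overlap in 8 of the 9 genes, and Atf2 alone had all 4 cKO libraries below the control libraries, by a narrow margin.

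Among the bZIP factors, Creb1 (ENSMUSG00000025958, chromosome 1), the founding CRE-binding activator, had 45.4, 61.8, 58.8 and 59.2 CPM in cKO libraries 1 to 4, against 65.1, 62.0, 63.4 and 58.3 CPM in control libraries 1 to 4. Library 1 of the cKO group was far below all others, and the remaining 3 cKO libraries lay within the control range. The means were 56.3 ± 7.40 CPM in cKO and 62.2 ± 2.88 CPM in control brain (SD, n = 4 each). The difference on the log2 scale was -0.14 (SE 0.081, 95% interval -0.31 to 0.030, edgeR adjusted p = 0.889). Without cKO replicate 1 the value was -0.057, and without both that library and control replicate 1 it was -0.029, so most of the difference came with 1 library. With 1 library left out at a time the value ran from -0.19, without cKO replicate 2, to -0.057.

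Crem (ENSMUSG00000063889, chromosome 18) encodes activators and, from an internal promoter, the short ICER repressors; the counts cover the whole gene and do not separate them. It had 15.5, 17.0, 13.5 and 17.9 CPM in cKO libraries 1 to 4, against 16.2, 17.4, 15.5 and 14.1 CPM in control libraries 1 to 4. Both the highest and the lowest library belonged to the cKO group, and the control libraries lay between them. The log2 fold change was 0.019 (SE 0.10, 95% interval -0.20 to 0.24, edgeR adjusted p = 0.984), and its sign turned without control replicate 4 (-0.038), without cKO replicate 2 (-0.014) and without cKO replicate 4 (-0.046). A transcript on the opposite strand, Gm6225, shares 472 of the 5895 exonic bases of Crem. It held 230 reads over the 8 libraries, where Crem held 2259, and without a stated strand setting their reads cannot be told apart.

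Atf1 (ENSMUSG00000023027, chromosome 15), the third factor with a kinase-inducible domain, was the least counted member, with 134 to 254 reads in cKO and 190 to 239 reads in control libraries. Its level was 9.70, 12.8, 11.7 and 11.9 CPM in cKO libraries 1 to 4, against 11.6, 13.4, 12.1 and 12 CPM in control libraries 1 to 4. As with Creb1, cKO replicate 1 was the lowest of all 8, and the other cKO libraries lay within the control range. Its log2 difference was -0.089 (SE 0.11, 95% interval -0.31 to 0.14, edgeR adjusted p = 0.913), and -0.025 without that library. It was -0.047 without control replicate 2, the highest library, and -0.14 without cKO replicate 2. The pseudogene Atf1-ps, a possible place for misassigned reads, held 3 reads over the 8 libraries.

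Atf2 (ENSMUSG00000027104, chromosome 2) binds CREs as well, often paired with JUN, and is a substrate of stress-activated kinases rather than of PKA. It had 133, 135, 142 and 144 CPM in cKO libraries 1 to 4, against 159, 145, 147 and 145 CPM in control libraries 1 to 4. All 4 cKO libraries lay below the 4 control libraries, yet the highest cKO library and the lowest control library were less than 2 CPM apart. Of all genes tested, 1.39% showed all cKO libraries below all control libraries, and 2.96% showed no overlap in either direction. The log2 fold change was -0.11 (SE 0.057, 95% interval -0.23 to 0.013, edgeR adjusted p = 0.889). It was -0.070 without control replicate 1, the highest library, -0.053 without both that library and cKO replicate 1, and -0.060 with offsets for GC content. With 1 library left out at a time the value ran from -0.13 to -0.070.

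**Figure D2:**
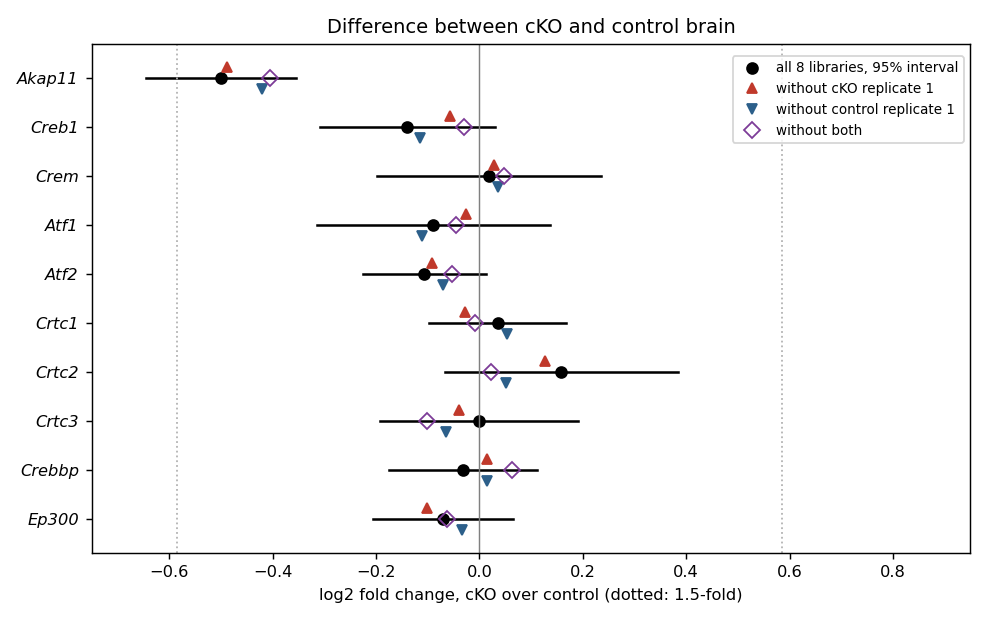
Log2 fold changes of cKO over control for Akap11 and the 9 genes, with 95% intervals from all 8 libraries (black), and the values without cKO replicate 1, without control replicate 1 and without both; dotted lines mark 1.5-fold. The interval of Akap11 lies below 0, while the intervals of all 9 genes include 0 and stay inside the dotted lines.

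Among the CRTC coactivators, Crtc1 (ENSMUSG00000003575, chromosome 8), the main neuronal form, had 262, 233, 218 and 219 CPM in cKO libraries 1 to 4, against 234, 233, 213 and 229 CPM in control libraries 1 to 4. It was the most counted member, with 3621 to 4622 reads in cKO and 3665 to 4560 reads in control libraries. Replicate 1 of the cKO group was the highest of all 8, and the other cKO libraries lay within the control range. The log2 fold change was 0.035 (SE 0.063, 95% interval -0.097 to 0.17, edgeR adjusted p = 0.940). Without cKO replicate 1 the sign turned, to -0.029.

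Crtc2 (ENSMUSG00000027936, chromosome 3), best known as the coactivator of the fasting response in liver, had the largest positive difference of the 9. It stood at 29.4, 27.4, 29.0 and 25.0 CPM in cKO libraries 1 to 4, against 18.8, 25.5, 25.0 and 29.6 CPM in control libraries 1 to 4. The control libraries held both the lowest and the highest value, with a coefficient of variation of 18.0%, against 7.18% in the cKO libraries. The log2 difference was 0.16 (SE 0.11, 95% interval -0.067 to 0.38, edgeR adjusted p = 0.889). It was 0.052 without control replicate 1, 0.023 without both that library and cKO replicate 1, and 0.25 without control replicate 4 (edgeR adjusted p = 0.788). Over the alternatives its edgeR, DESeq2 or limma adjusted p ran from 0.708 to 1.

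Crtc3 (ENSMUSG00000030527, chromosome 7), the third member of that family, had 23.6, 21.0, 22.4 and 20.7 CPM in cKO libraries 1 to 4, against 18.6, 21.9, 24.3 and 22.5 CPM in control libraries 1 to 4. The means, 21.9 ± 1.33 CPM in cKO and 21.8 ± 2.39 CPM in control brain (SD, n = 4 each), were nearly equal. The 95% interval of its log2 fold change ran from -0.19 to 0.19 (edgeR adjusted p = 0.9998). With a value this close to 0 the sign turned under most alternatives, and without both libraries that stand apart the value was -0.10.

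The acetyltransferase pair did not pass either. Crebbp (ENSMUSG00000022521, chromosome 16), encoding CBP, had 60.5, 68.1, 69.7 and 73.2 CPM in cKO libraries 1 to 4, against 75.6, 67.1, 67.8 and 67.3 CPM in control libraries 1 to 4. Replicate 1 was the lowest library of the cKO group and the highest of the control group, while the other 6 libraries lay between 67.1 and 73.2 CPM. Its log2 fold change was -0.031 (SE 0.069, 95% interval -0.17 to 0.11, edgeR adjusted p = 0.954). The sign turned without cKO replicate 1 (0.015), without control replicate 1 (0.015) and without both (0.062).

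Ep300 (ENSMUSG00000055024, chromosome 15), encoding p300, had 87.8, 80.2, 76.1 and 88.2 CPM in cKO libraries 1 to 4, against 93.1, 86.3, 86.5 and 82.8 CPM in control libraries 1 to 4. Replicates 2 and 3 of the cKO group lay below all control libraries, and the other 2 lay within the control range. The log2 fold change was -0.070 (SE 0.065, 95% interval -0.21 to 0.065, edgeR adjusted p = 0.901), or -0.034 without control replicate 1 or cKO replicate 3, and -0.10 without cKO replicate 1.

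The precision of these values bounds the size of a difference in whole-tissue RNA between these groups of libraries. The 95% intervals of all 9 genes excluded a 1.5-fold change in either direction. The same held for 76.7% of all genes tested and for 99.3% of the 9839 genes with a mean of at least 11.9 CPM, the level of the lowest member, so the bound is that of well counted genes in these libraries. As folds, the widest intervals ran from 0.805 to 1.10 for Atf1 and from 0.955 to 1.31 for Crtc2. The narrowest, for Atf2, ran from 0.856 to 1.01. The bounds are for RNA of the whole tissue and do not cover differences within single cell types. They also hold for cKO tissue in which counted Akap11 RNA stood at 0.71 of the control level (95% interval 0.64 to 0.78).

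Levels of different genes were compared per length, as TMM-scaled reads per kilobase of annotated exon and library size (RPKM). Crtc1 and Atf2 stood well above the other 7 members. Crtc1 averaged 20.9 ± 1.83 RPKM in cKO and 20.3 ± 0.874 RPKM in control brain, and Atf2 averaged 16.9 ± 0.662 RPKM in cKO and 18.2 ± 0.842 RPKM in control brain (SD, n = 4 each). The ranges of this pair did not overlap in cKO libraries but did in control libraries. With the longest annotated transcript as the length, their order turned, with Atf2 at 32.9 RPKM in cKO and 35.4 RPKM in control brain and Crtc1 at 22.7 RPKM in cKO and 22.2 RPKM in control brain.

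Next came Crtc2, at 6.77 ± 0.486 RPKM in cKO and 6.04 ± 1.09 RPKM in control brain, and Ep300, at 5.82 ± 0.416 RPKM in cKO and 6.11 ± 0.300 RPKM in control brain; these ranges overlapped. Crebbp followed at 5.01 ± 0.395 RPKM in cKO and 5.13 ± 0.302 RPKM in control brain. In control libraries its range lay below that of Ep300 and above that of Creb1, and in cKO libraries it overlapped both. Creb1 and Atf1, at 4.10 ± 0.538 and 3.76 ± 0.427 RPKM in cKO and 4.53 ± 0.209 and 4.02 ± 0.257 RPKM in control brain, overlapped in both groups. The lowest pair by this length, Crem at 2.71 ± 0.331 RPKM in cKO and 2.68 ± 0.233 RPKM in control brain and Crtc3 at 2.23 ± 0.135 RPKM in cKO and 2.22 ± 0.242 RPKM in control brain, also overlapped in both groups (SD, n = 4 each). The lower part of this order also depended on the length used. With the longest transcript, Creb1, at 6.73 RPKM in cKO and 7.44 RPKM in control brain, stood above Crebbp, at 6.27 RPKM in cKO and 6.42 RPKM in control brain. Crem, at 5.45 RPKM in cKO and 5.39 RPKM in control brain, then stood above Atf1, at 4.87 RPKM in cKO and 5.20 RPKM in control brain, and Crtc3 remained the lowest. Creb1, which gives the family its name, was not the most abundant transcript per length in either group with either length.

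**Figure D3:**
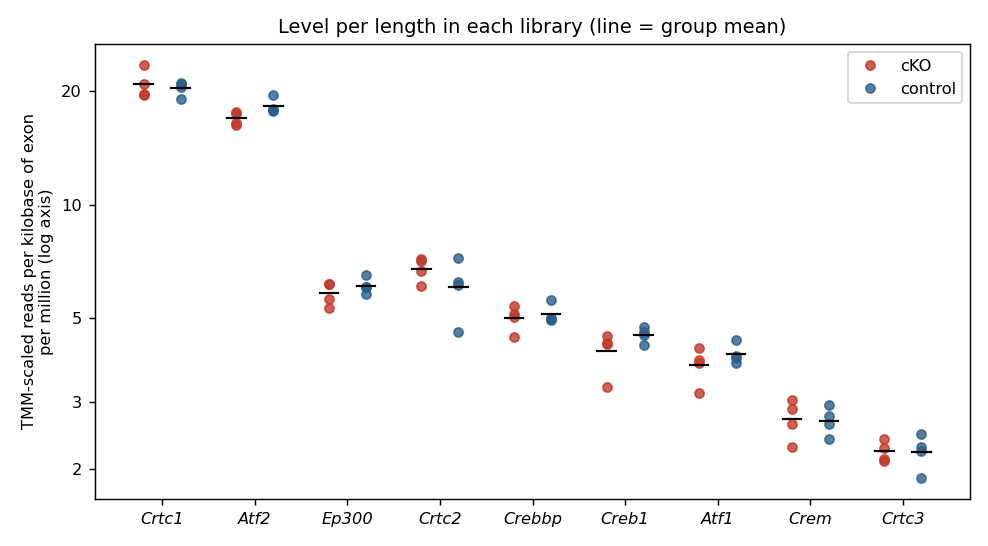
TMM-scaled RPKM of each gene on a log axis; points are single libraries, cKO (red) left of control (blue), and black lines are group means. Crtc1 and Atf2 lie between 16.2 and 23.4, and the other 7 genes lie between 1.89 and 7.22.

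Within each role, Crtc1 made up 69.8% ± 1.51 of the summed per-length level of the 3 CRTC genes in cKO and 71.2% ± 3.66 in control brain, with Crtc2 at 22.7% ± 1.26 in cKO and 21.1% ± 3.10 in control brain (SD, n = 4 each). Single libraries placed Crtc1 between 67.6% and 71.0% in cKO and between 68.3% and 76.4% in control brain, the highest being control replicate 1. Among the 4 bZIP genes Atf2 held 61.6% ± 2.29 in cKO and 61.9% ± 1.45 in control brain, and Creb1 held 14.9% ± 1.29 in cKO and 15.4% ± 0.344 in control brain. Crebbp made up 46.3% ± 3.0 of the acetyltransferase pair in cKO and 45.6% ± 0.564 in control brain. The wider cKO spread came with replicate 1, where Crebbp held 42.1%, against 46.7% to 49.1% in the other cKO libraries. No test was run on these shares.

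Departures of single libraries were taken, for each of the 9 genes, against the mean of the other 7. A single library varies more than a group mean, so these values are not set against the group differences. In cKO replicate 1 the log2 level, relative to the mean of the other 7 libraries, was -0.43 for Creb1, -0.33 for Atf1, -0.21 for Crebbp and -0.13 for Atf2, and it was -0.035 for Crem. In the same library it was 0.22 for Crtc1, 0.20 for Crtc2 and 0.13 for Crtc3, and 0.054 for Ep300. The 4 bZIP genes have the lowest GC content of the set, 39.6% to 45.2% of the longest transcript, and the 3 CRTC genes the highest, 54.5% to 57.0%. The order of the values did not follow GC content throughout, with Crem, at 43.2%, near 0 in this library. Any part of GC content in these departures was not tested. In control replicate 1 the value was -0.53 for Crtc2 and -0.26 for Crtc3, and between 0.15 and 0.17 for Creb1, Atf2, Crebbp and Ep300. Crtc1 at 0.030, Atf1 at -0.031 and Crem at 0.042 lay near 0 there. With GC-content offsets in the fit, Creb1 stood at -0.098, Crtc1 at -0.025 and Crtc2 at 0.12 between the groups, and 0 of the 9 passed.

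**Figure D4:**
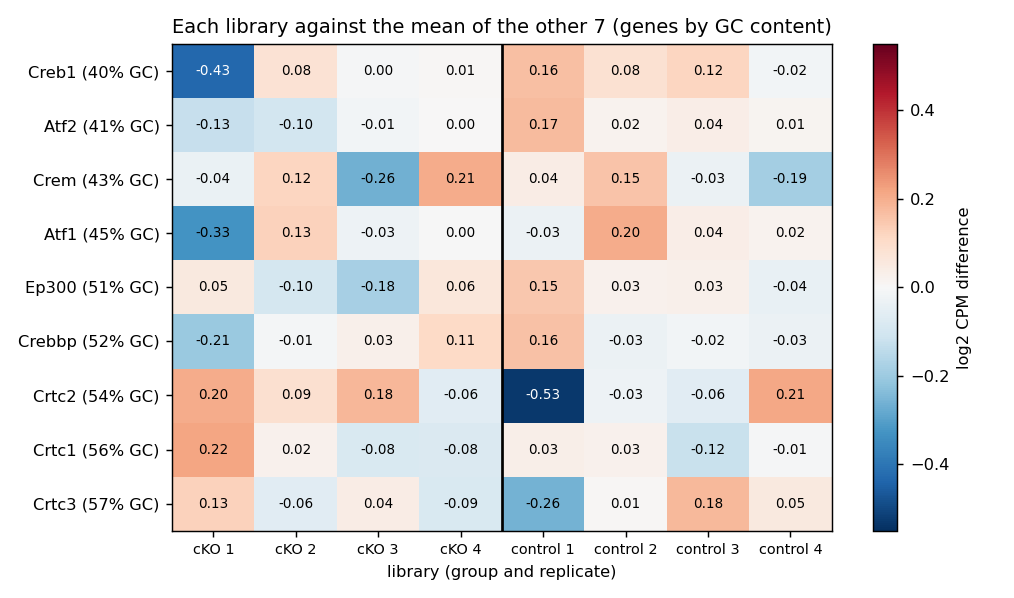
Log2 CPM of each library minus the mean of the other 7, for the 9 genes ordered from low (top) to high GC content; columns are the 4 cKO libraries and, right of the line, the 4 control libraries. The darkest cells are Creb1 in cKO replicate 1 (-0.43) and Crtc2 in control replicate 1 (-0.53), and the CRTC genes are positive in cKO replicate 1.

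The genes whose log2 CPM followed that of Creb1 most closely over the 8 libraries, of 10367 others with a mean of at least 10 CPM, were Lifr (Pearson's r 0.993, Spearman's rho 0.905), Eif1ax (Pearson's r 0.989, Spearman's rho 0.905) and Ddx6 (Pearson's r 0.985, Spearman's rho 0.881). Lifr encodes a receptor of leukemia inhibitory factor, Eif1ax a translation initiation factor and Ddx6 an RNA helicase. All 3 had their lowest value in cKO replicate 1, with Lifr at 31.5 CPM there and 44.0 to 46.6 CPM in the other cKO libraries, against 42.5 to 50.3 CPM in control libraries. These coefficients describe the ranking, share that 1 low library, and were not tested.

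Other genes of the pathway were examined as 5 lists written from general knowledge. None of their members passed the edgeR test over all genes in either direction, and DESeq2 and limma voom called none of them either. At an unadjusted edgeR p under 0.05 the lists held 1 gene in all, Camk4, with a negative log2 fold change, where 4.78% of all genes tested reached that threshold. Of 14 related CREB and ATF factors 13 were tested; 8 had positive and 5 had negative log2 fold changes, with a median of 0.073. The lowest p-values belonged to Atf6b at 0.15 (SE 0.080), Atf5 at 0.21 (SE 0.11), Crebzf at 0.13 (SE 0.078) and Creb3l1 at 0.26 (SE 0.19). Atf6b and Creb3l1 encode membrane-bound factors released from the endoplasmic reticulum.

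The next list held 18 kinases that phosphorylate CREB or activate such kinases. Of these, 17 were found and tested, 7 with positive and 10 with negative log2 fold changes (median -0.0062). Camk4, the nuclear calcium/calmodulin-dependent kinase of neurons, had 58.5, 69.3, 66.1 and 65.7 CPM in cKO libraries 1 to 4, against 88.4, 71.5, 69.9 and 65.7 CPM in control libraries 1 to 4. The groups overlapped, and control replicate 1 was far above the rest. Its log2 fold change was -0.18 (SE 0.082, edgeR adjusted p = 0.889), or -0.083 without control replicate 1 and -0.040 without both libraries that stand apart. Camk1d stood at -0.12 and Akt1 at 0.090. Among the 15 kinases and phosphatases that act on CRTC proteins or on their kinases, 12 were negative and 3 positive (median -0.041). Over all genes tested, 8178 were negative and 8588 positive. Sik1, a salt-inducible kinase that is itself a CREB target, stood at 0.23 (SE 0.14), its relative Sik2 at -0.12 (SE 0.089), Mark3 at -0.087 and Ppp3ca, encoding a catalytic subunit of calcineurin, at -0.10 (SE 0.071). Without cKO replicate 1 the value of Ppp3ca was -0.026, and without both libraries that stand apart it was 0.016. Prkaa1, Prkaa2, Ppp3cb and Ppp3r1, picked out after the values were seen, also turned positive without both, at 0.024, 0.0086, 0.0017 and 0.014. The rest of this list kept its signs, so the lean to negative values came in part with those libraries. Of 16 other acetyltransferases and coactivators, 9 were positive and 7 negative (median 0.030), with Kat6a at -0.11, Kat2a at 0.098, Cited1 at 0.37 (SE 0.24) and Ncoa1 at -0.083. Cited1 stood at 0.10 without cKO replicate 1, its highest library, and Ncoa1 at -0.0090 without control replicate 1. With 1 library left out at a time, Camk4 ran from -0.24 to -0.083 and Ppp3ca from -0.14 to -0.026. Cited1 then ran from 0.10 to 0.50 and Ncoa1 from -0.14 to -0.0090.

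The 30 CREB target genes, all tested, had 18 positive and 12 negative log2 fold changes and a median of 0.080, where the median over all genes was 0.0034. They include immediate early genes, whose transcription follows recent neuronal activity. Fos and Arc, picked out after the values were seen, were both highest in cKO replicates 1 and 2 and control replicate 2. Fos had 45.6, 50.2 and 49.3 CPM there and 21.7 to 35.6 CPM in the other libraries. Genes that move together in this way are not separate observations, and the list median was not tested. Not every listed gene followed Fos and Arc. Npas4, also picked out after the values were seen, had 21.9 CPM in cKO replicate 1 and 28.6 CPM in control replicate 1. Dusp1, a phosphatase of MAP kinases, had the lowest p, with 55.4, 52.2, 35.0 and 46.6 CPM in cKO libraries 1 to 4, against 34.8, 47.1, 26.9 and 30.5 CPM in control libraries 1 to 4. The groups overlapped, since control replicate 2 lay above 2 of the cKO libraries. Its log2 fold change was 0.44 (SE 0.20, 95% interval -0.023 to 0.91, edgeR adjusted p = 0.889). Sik1 stood at 0.23 and Fosb, a partner in AP-1, at 0.20 (SE 0.14). The neuropeptide genes Penk and Sst stood at -0.12 (SE 0.061) and 0.11 (SE 0.069), and Scg2, encoding a secretogranin, at -0.093 (SE 0.058). The largest value, 0.47 for Nr4a1 (SE 0.34), was picked out after the values were seen.

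**Figure D5:**
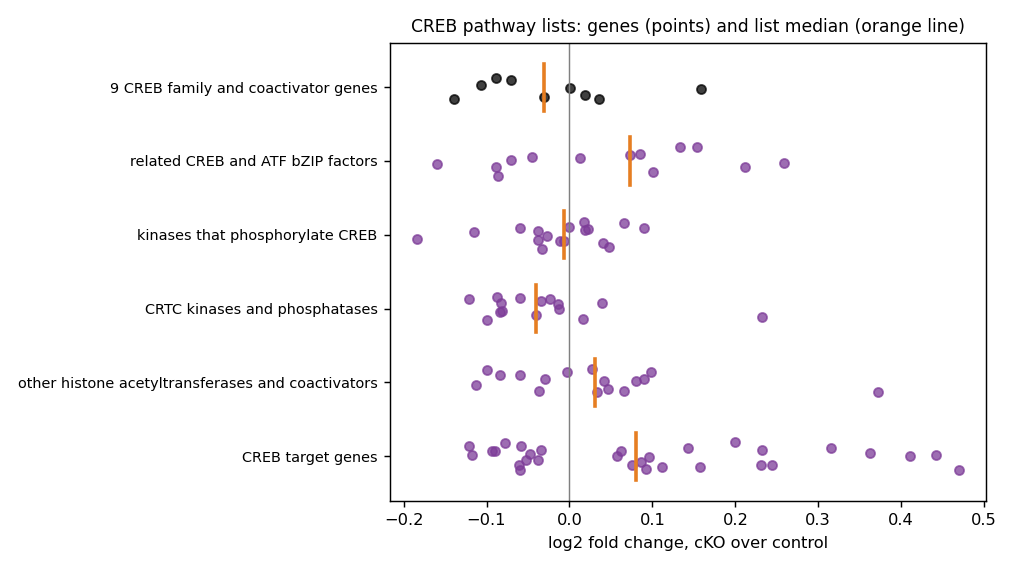
Log2 fold changes of cKO over control for the 9 genes (black points) and for the tested members of the 5 pathway lists (purple points), with each list's median as an orange line. The medians lie between -0.041 and 0.080, and the widest scatter is among the CREB target genes.

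The CRE itself can be read in the promoters of several of these targets. The full palindrome TGACGTCA was searched in RefSeq promoters of the GRCm38.p6 assembly, each 300 bases from 250 before to 50 after a start, and so was its 5-base core TGACG on both strands, which lies within the palindrome. Of 32851 promoters, 1.79% held the palindrome and 20.8% the core. Among the CREB target genes 22 had a promoter in the table. Of these genes 5 held the palindrome and 19 the core in at least 1 promoter. These are counts of genes, some with several promoters (Bdnf has 7), whereas the shares above are of single promoters, so the 2 are not directly comparable. The 5 genes with the palindrome are shown as examples of the sequence that the bZIP members bind. The list was written from general knowledge of CREB targets, so finding the palindrome in it was likely beforehand and is no support for the list. The palindrome is in capitals and each stretch is given 5′ to 3′ on the strand of its gene. Sst lies at chr16:23890859-23890918 on the minus strand, Pcsk1 at chr13:75089753-75089812 on the plus strand, Cartpt at chr13:99900762-99900821 on the minus strand, Dusp1 at chr17:26508582-26508641 on the minus strand and Scg2 at chr1:79440061-79440120 on the minus strand.
Sst: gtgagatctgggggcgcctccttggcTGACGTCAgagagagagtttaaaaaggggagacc
Pcsk1: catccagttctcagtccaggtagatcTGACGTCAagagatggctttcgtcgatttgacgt
Cartpt: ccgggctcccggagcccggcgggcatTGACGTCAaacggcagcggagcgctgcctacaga
Dusp1: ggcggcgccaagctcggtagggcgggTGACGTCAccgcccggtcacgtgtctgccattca
Scg2: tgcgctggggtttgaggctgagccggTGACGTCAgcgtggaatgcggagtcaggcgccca

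In these 5 genes the palindrome begins 48 bases before the start in Sst, 78 in Pcsk1, 112 in Cartpt, 143 in Dusp1 and 68 in Scg2. Their log2 fold changes went both ways, at 0.44 for Dusp1, 0.24 for Cartpt (SE 0.33), 0.11 for Sst, -0.078 for Pcsk1 (SE 0.084) and -0.093 for Scg2, and none passed the edgeR test. Cartpt encodes the CART peptide and Pcsk1 a prohormone convertase. Sst, whose promoter served to define the CRE, had 162, 166, 132 and 139 CPM in cKO libraries 1 to 4, against 143, 138, 136 and 137 CPM in control libraries 1 to 4. Replicates 1 and 2 of the cKO group lay above all other libraries, and replicate 3 was the lowest.

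Of the 9 members themselves, 7 had a promoter in the table. Crem and Crtc2 had none there, so their promoters, with the internal promoter of Crem, were not searched. None of the 7 held the palindrome, and Atf1 alone held the core, 90 bases before its start at chr15:100227743-100227799 on the plus strand, in capitals here.
Atf1: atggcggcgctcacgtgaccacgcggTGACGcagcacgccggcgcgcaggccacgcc

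A match is a stretch of letters and not a measured binding site, and these windows leave out more distant and internal promoters.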

How the data were processed

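The authors deposited raw read counts for each gene, as whole numbers in a separate file for every library. HISAT2 and the GRCm39 build are named in the submitters' processing notes; the counting program, its strand setting and the annotation are not stated there. Of 57186 Ensembl identifiers, 51880 were matched to symbols. The 5 closing entries that name no gene stayed out of library sizes and tests; over the libraries they took 4.35% to 6.04% (no feature), 5.14% to 10.1% (ambiguous), 2.15% to 7.18% (low quality), 3.31% to 10.4% (unaligned) and 4.10% to 4.39% (several alignments) of all entries. Groups and replicate numbers came from the sample titles.

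Genes were filtered with filterByExpr (16766 of 32202 genes with a read kept), scaled by TMM and tested with the robust quasi-likelihood test of edgeR 4.0.16 in R 4.3.3, with group as the only term. P-values were adjusted by Benjamini and Hochberg over all genes tested, with a threshold of 0.05. The fit was tested on simulated data. Lengths and GC content came from GENCODE M21, matched by Ensembl identifier, and promoters from RefSeq; GRCm39 coordinates are not used here. The alternatives were DESeq2 1.42.0, its size factors, library totals, no filter, a filter of 1 CPM in 4 libraries, limma 3.58.1 voom, the replicate number as a block, each library left out, cKO replicate 1 and control replicate 1 left out together, and GC-content offsets (loess, span 0.5; 303 tested genes without GC content got none).

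The 9 members, the 5 lists and the tests were chosen with earlier results of these data known. Named genes were the 9 members, Akap11, up to 4 genes with the lowest p per list (6 for CREB targets) and the 3 genes most like Creb1. Aqp4 was named because it passed the test, and so after its values were seen. Gm6225 and Atf1-ps were named as possible places for misassigned reads of a member. Any other is said to be chosen after its values were seen or is given for its CRE. A gene that the rule names among the kinases is not reported here.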

Additional observations from a re-analysis of the deposited data

Results flagged for a closer look

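In 2 of 20 groups of 4 libraries examined (the 9 genes and Akap11 in cKO and in control brain), 1 library lay far from the rest by Dixon's criterion, which chance meets in about 1 group in 20. Both involve control replicate 1. Atf2 stood at 159 CPM there, against 145 to 147 CPM in the other control libraries, with a gap of 0.874 of the group's range. Crebbp stood at 75.6 CPM there, against 67.1 to 67.8 CPM in the other control libraries, with a gap of 0.917 of the range.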

How the results depend on the processing

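In every alternative run, 0 of the 9 genes and 0 members of the 5 lists passed the adjusted threshold. Creb1, Atf1, Atf2, Crtc2 and Ep300 kept the sign of their log2 fold change throughout. Crtc1 turned to -0.025 with GC-content offsets and to -0.0090 without both cKO replicate 1 and control replicate 1. Crebbp turned to 0.062 without both. Crtc3, at 0.000083, turned to -0.0032 with DESeq2, -0.0027 with its size factors, -0.0034 with no filter, -0.0021 with the filter of 1 CPM, -0.0017 with limma voom, -0.058 with GC-content offsets and -0.10 without both libraries. With 1 library left out, the ranges were -0.046 to 0.091 for Crem, -0.029 to 0.061 for Crtc1, -0.065 to 0.052 for Crtc3, -0.072 to 0.015 for Crebbp and -0.55 to -0.42 for Akap11, whose call ended in 2 of these 8 fits. At an unadjusted p under 0.05, 1 of the 9 was reached without control replicate 4 (Crtc2) and 1 without cKO replicate 2 (Creb1). The count over all genes was 4, and it was 7 with no filter, 2 without both libraries and 0 to 3 with 1 library left out, at 0 without control replicate 2 or cKO replicate 2. With the replicate number as a block it was 2. Same-numbered libraries correlated at 0.0052 to 0.049 across genes, and 1 of the 4 cKO libraries correlated best with its own number. The labels give no link between same-numbered libraries beyond the number, and these values do not decide whether there is one. The scalings moved the median of all genes to between 0.00032 and 0.013. The cause of these shifts was not tested. Per-length levels rose with the longest transcript as the length, as its shorter length requires.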
